A study of Mus musculus with 12 samples.

Results

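The desmosomal genes Pkp1, Pkp2, Pkp3, Pkp4, Dsp, Jup, Dsg2, Dsc2 and Dsc3 were followed array by array in Myc-driven mouse mammary tumours with and without the kinase gene Hunk. All probe sets carrying one of these 9 symbols in the platform annotation were taken, which gave 22 of the 22690 probe sets on the array. The group was selected on an earlier result of the same arrays, in which Pkp2 stood out between knockout and wild type. The difference of Pkp2 is therefore a description here, its p-value is not given, and neither it nor its calls count as support. The other 8 genes were taken for their place in the desmosome.

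The 12 arrays held RNA of mammary gland tumours from female FVB mice, all of which carried a c-myc transgene under the mouse mammary tumour virus (MMTV) promoter, a promoter active mainly in mammary epithelium. In 6 samples, labelled MMTV-c-myc/Hunk KO, a 1.1 kb piece of Hunk with the putative promoter and exon 1 had been exchanged for a neomycin cassette, by targeting in E14 embryonic stem cells. The other 6, labelled MMTV-c-myc/Hunk WT, had intact Hunk. Both groups came from crosses between Hunk heterozygotes, the females had been mated 2 times, and mice were killed when a tumour reached 20 mm, so that age at collection was not fixed by the design. Ages are not given in the sources used here, and neither is whether each array came from its own mouse. If some did not, the p-values below measure only the spread between these samples, which may be technical.

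Desmosomes are junctions that anchor the keratin filaments of neighbouring epithelial cells to each other. Their cadherins, the desmogleins and desmocollins, span the gap between cells, and inside the membrane the armadillo proteins plakoglobin (Jup) and the plakophilins link them to desmoplakin (Dsp), which binds keratin. Pkp2 with Dsg2 and Dsc2 is typical of simple epithelia and heart muscle, whereas Pkp1 and Dsc3 mark stratified and basal epithelium. Pkp3 occurs in most epithelia, and Pkp4 (p0071) is found at adherens junctions as well as desmosomes.

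Levels are the deposited log2 GCRMA signals, on which a difference of 1 is a 2-fold change, and differences are knockout minus wild type throughout. As the background of an array its highest Bacillus control probe set was used, which lay between 3.60 and 4.00 in the knockout and between 3.45 and 3.75 in the wild type. Array medians ran from 3.87 to 4.10. Precision is limited by there being 6 arrays a group. Hunk, the targeted gene, was above background on 0 of 6 knockout and 4 of 6 wild-type arrays. Knockout arrays 4 and 5 were the closest pair of the series, with an SD of 0.259 for their difference over all probe sets against 0.412 for the next closest pair, and results were also computed with the 2 averaged. All 8 luminal epithelial markers looked at were above background on some arrays. Epcam and Krt8, which define epithelium and its simple keratin network, were above it on all 12. Of the 22 desmosomal probe sets, 10 were above background on all 12 arrays and 4 on none.

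Of the 22 probe sets, 13 had a mean above the filter on low values, set at the median probe-set mean of 3.98, and they covered 7 of the 9 genes. Both probe sets that passed in the limma fit over all 11313 probe sets (Benjamini-Hochberg adjusted p under 0.05) belong to Pkp2 and were higher in the knockout, where 1.18% of all tested probe sets were called higher. None of the 13 was called lower in that fit, where 1.28% of all tested probe sets were. At an unadjusted p under 0.05, 1 of the 13 was lower in limma, as were 10.2% of all tested probe sets. Since the same contrast chose Pkp2, nothing is read from the higher count. Of the 13 differences 8 were positive and 5 negative, with a median of 0.21 beside 0.01 over all probe sets tested. The 13 include the Pkp2 probe sets and, for some genes, several probe sets of 1 gene. Nothing is therefore read from these signs or this median. Of the 9 probe sets below the filter none passed in the fit over all 22626 probe sets, where 0.323% were called higher and 0.349% lower, and 1 of the 9 (Pkp1, lower) had an unadjusted p under 0.05. In that limma fit 5.64% of all probe sets were lower at this unadjusted threshold and 11.3% differed in either direction.

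**Figure D1:**
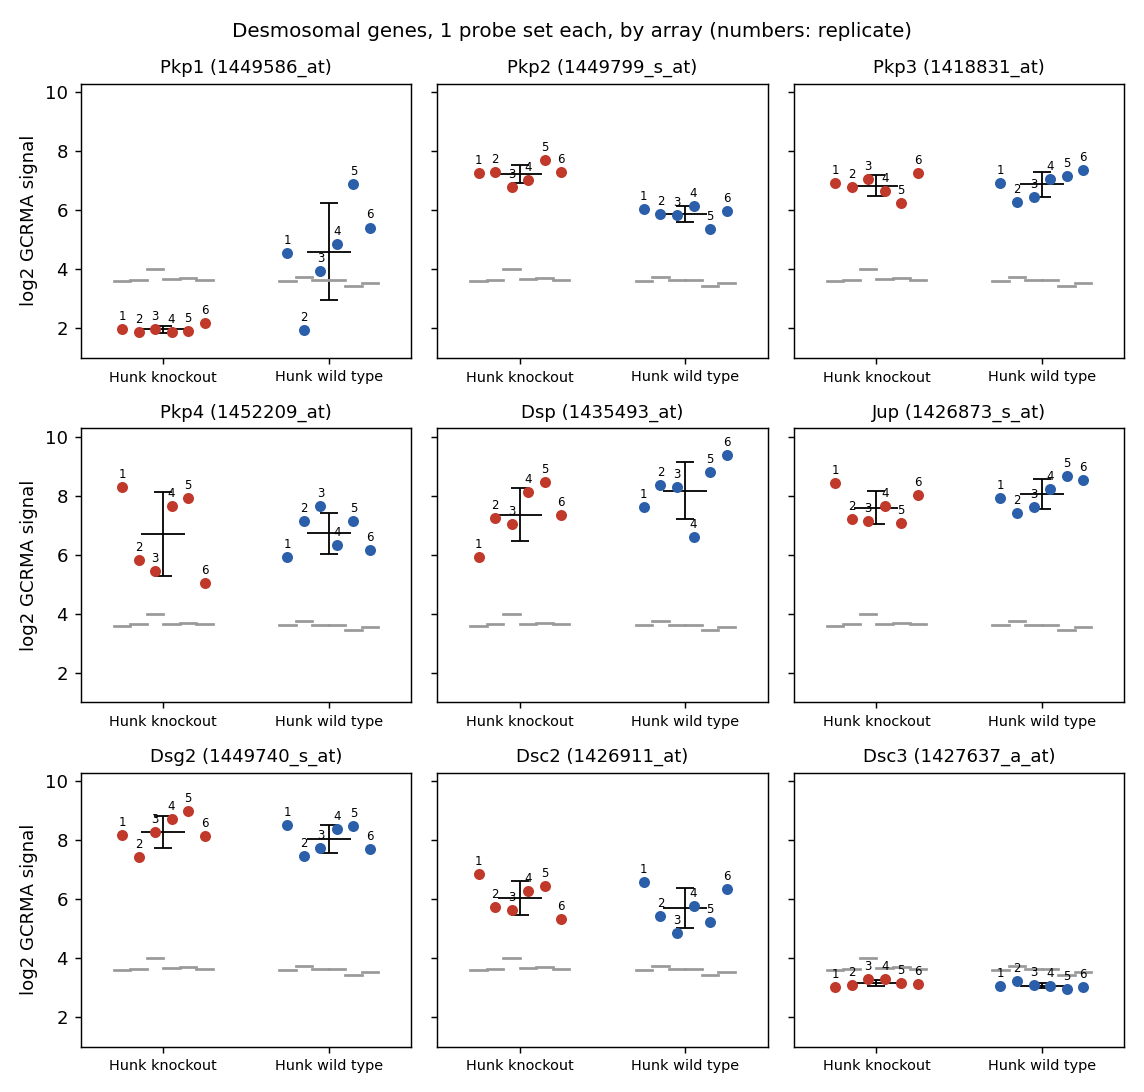
Log2 GCRMA signal (y axis) of the probe set of highest mean signal for each desmosomal gene on the 6 knockout (red) and 6 wild-type (blue) arrays, with the replicate number at each point, the mean and SD in black and each array's background as a grey line. Pkp2 alone does not overlap between the groups. Pkp1 exceeds background on 5 wild-type arrays and no knockout array, and Dsc3 lies below background on all 12 arrays.

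The plakophilins differed from one another in how they lay between the groups. Pkp2, on chromosome 16 like Hunk, is the plakophilin of simple epithelium, which helps to recruit desmoplakin to the junction. Its brightest probe set, 1449799_s_at, ran from 6.79 through a median of 7.27 to 7.72 in the knockout and from 5.36 through 5.92 to 6.14 in the wild type. Every knockout array was above every wild-type array, which held for 1.49% of all tested probe sets in this direction. The means were 7.23 ± 0.31 (SD, n = 6) and 5.87 ± 0.28 (SD, n = 6), a log2 difference of 1.36 (SE 0.17). The spread within each group was small, since the highest knockout array (5) was 1.90-fold above the lowest (3) and the highest wild-type array (4) was 1.72-fold above the lowest (5).

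A second Pkp2 probe set, 1429183_at, gave the same order of the groups. It ran from 4.82 through 5.10 to 5.53 in the knockout and from 2.98 through 3.52 to 4.13 in the wild type, again without overlap, and differed 2.96-fold (log2 difference 1.57, SE 0.19). Only 3 of the 6 wild-type arrays were above background on it, so that the size of its difference rests in part on the background. The remaining 2 Pkp2 probe sets did not separate the groups. Probe set 1420259_at stayed between 3.84 and 4.24 on all 12 arrays (log2 difference 0.06, adjusted p = 0.651), and 1460511_at was below background on all of them. The separation was thus seen on 2 of the 4 probe sets. The other 2 lay close to or below the array backgrounds, so they show little either way. The 2 probe sets that separated the groups followed each other only loosely within them. Their deviations from the group means had r = 0.35 over 12 arrays of the same RNA.

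Several marker lists and the beta-actin 3' to 5' difference, a sign of RNA quality, had other values in the knockout than in the wild type. The mean of the 8 luminal markers lay between 9.51 and 9.93 on knockout arrays and between 8.97 and 9.44 on wild-type arrays. Of the 8, 2 were called higher (Krt19 and Cd24a) and 6 did not pass, of which Kit (-2.95), Epcam (-0.19) and Krt18 (-0.17) had lower means in the knockout. The summed linear signal of the 8 overlapped, from 14951 to 22013 in the knockout and from 11283 to 18511 in the wild type. Of 4 adipocyte markers tested, 1 was called higher (Pnpla2). In the limma fit over all probe sets neither Krt19 (adjusted p = 0.0978) nor Pnpla2 (adjusted p = 0.0747) passed. The summed signal of the 6 adipocyte markers on the array ran from 1662 to 7812 against 390 to 1736. The adipocyte-defining Adipoq was above background on knockout array 2 alone, and Cidec on no array. None of 6 macrophage markers passed, all with a negative difference (median -0.30, sums 694 to 1358 against 1096 to 1411), and none of 3 fibroblast markers tested passed, all with a positive one (median 0.71, sums 1896 to 4823 against 1365 to 3064). With the luminal mean as a covariate the Pkp2 difference was 1.48 for 1449799_s_at and 1.31 for 1429183_at. The luminal mean did not overlap between the groups, so it and the genotype cannot be told apart in this fit. In that limma fit 0 desmosomal probe sets were called, and of all 11313 probe sets 1 was called higher and 0 lower. The beta-actin difference overlapped, between 1.26 and 1.72 in the knockout and between 1.21 and 1.34 in the wild type, and with it as a covariate the Pkp2 differences were 1.58 and 1.66. The part of these cell types in the Pkp2 difference was not tested, and in tumour RNA fewer cells of a type and less RNA per cell cannot be told apart.

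Pkp1, the plakophilin of stratified epithelium, has 1 probe set and lay the other way. It was below background on all 6 knockout arrays, where it ran from 1.87 through 1.94 to 2.19. In the wild type it ran from 1.93 through 4.71 to 6.88 and was above background on 5 of 6 arrays. With each knockout value raised to the background of its array, the knockout was lower by at least 1.85-fold, and the means were 1.97 ± 0.12 (SD, n = 6) and 4.60 ± 1.64 (SD, n = 6). The difference did not pass in the limma fit over all 22626 probe sets (adjusted p = 0.0841). Wild-type array 2, at 1.93, was the only wild-type array within the knockout range. Without it the adjusted p was 0.00631, and over leaving out each other array in turn it lay between 0.103 and 0.184. With array weights it was 0.00664, and with the replicate number as a block 0.131. Where all values were floored at the array background the difference was -1.19 (adjusted p = 0.232), with an offset of 32 it was -0.82 (adjusted p = 0.240), and with the beta-actin covariate the adjusted p was 0.330. Because Pkp1 was detected on wild-type arrays alone, its mean of 3.28 over the 12 arrays lay below the filter.

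Among the 5 wild-type arrays with Pkp1 signal the level varied widely, from 3.93 on array 3 to 6.88 on array 5. Markers of basal and cornifying epithelium were looked at beside it, since Pkp1 is abundant in skin. Wild-type array 6, the second highest for Pkp1 at 5.42, stood apart with Krt5 at 8.04, Krt6a at 10.25, Krt17 at 8.29 and the cornified envelope gene Sprr1a at 6.65. The basal markers Trp63 (4.36), Acta2 (8.94) and Mylk (5.51) were not raised on it against the other arrays. On wild-type array 5, the highest for Pkp1, Krt5 was 3.62, Krt6a 4.02, Krt17 4.44 and Sprr1a 3.61. Krt5, Krt6a, Krt17 and Sprr1a were picked after their values were seen. The basal keratin Krt14 was 8.58 on wild-type array 6 and 5.57 on array 5, and it ran from 6.77 to 9.46 on 5 of the 6 knockout arrays, where Pkp1 was below background. Of the 8 cornifying markers on the array, Krt1, Krt10, Lor, Flg and Krtdap were at or below background on all 12 arrays. Sprr1a and Sprr1b were above it on 6 of 6 arrays in each group. Ivl was above it on 5 of 6 in each, with means of 3.74 in the knockout and 3.63 in the wild type. Sprr1b stayed between 3.92 and 4.25 on all 12 arrays, and Sprr1a between 3.61 and 4.42 outside wild-type array 6. Array backgrounds ran from 3.45 to 4.00, so these counts are not read as expression on every array. The summed linear signal of the 8 cornifying markers on the array ran from 81.3 to 104 in the knockout and from 75.6 to 170 in the wild type, and that of the 8 basal markers from 675 to 1608 and from 514 to 1526. Their part in the Pkp1 difference was not tested.

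Pkp3 and Pkp4 overlapped between the groups. Pkp3, the plakophilin with the widest epithelial distribution, ran from 6.26 through 6.86 to 7.28 in the knockout and from 6.28 through 7.00 to 7.38 in the wild type on probe set 1418831_at. The difference was -0.05 (SE 0.22, adjusted p = 0.903), and its sign turned under 7 of 29 alternatives. Its other probe set, 1418832_at, was below background throughout.

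Pkp4 differed far more between arrays of one group than between the groups. On probe set 1452209_at knockout arrays 1, 5 and 4 lay at 8.31, 7.92 and 7.66, and arrays 2, 3 and 6 at 5.83, 5.46 and 5.03. The wild-type arrays ran from 5.94 through 6.73 to 7.67 and all lay between knockout arrays 2 and 5. The knockout range was 9.67-fold and that of the wild type 3.32-fold, while the means of 6.70 ± 1.42 (SD, n = 6) and 6.73 ± 0.68 (SD, n = 6) differed by -0.03 (SE 0.58, adjusted p = 0.983). The sign of this difference turned under 10 of 29 alternatives. The second Pkp4 probe set, 1438677_at, was above background on 2 of 6 arrays in each group (difference 0.22, adjusted p = 0.632 over all probe sets in limma).

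**Figure D2:**
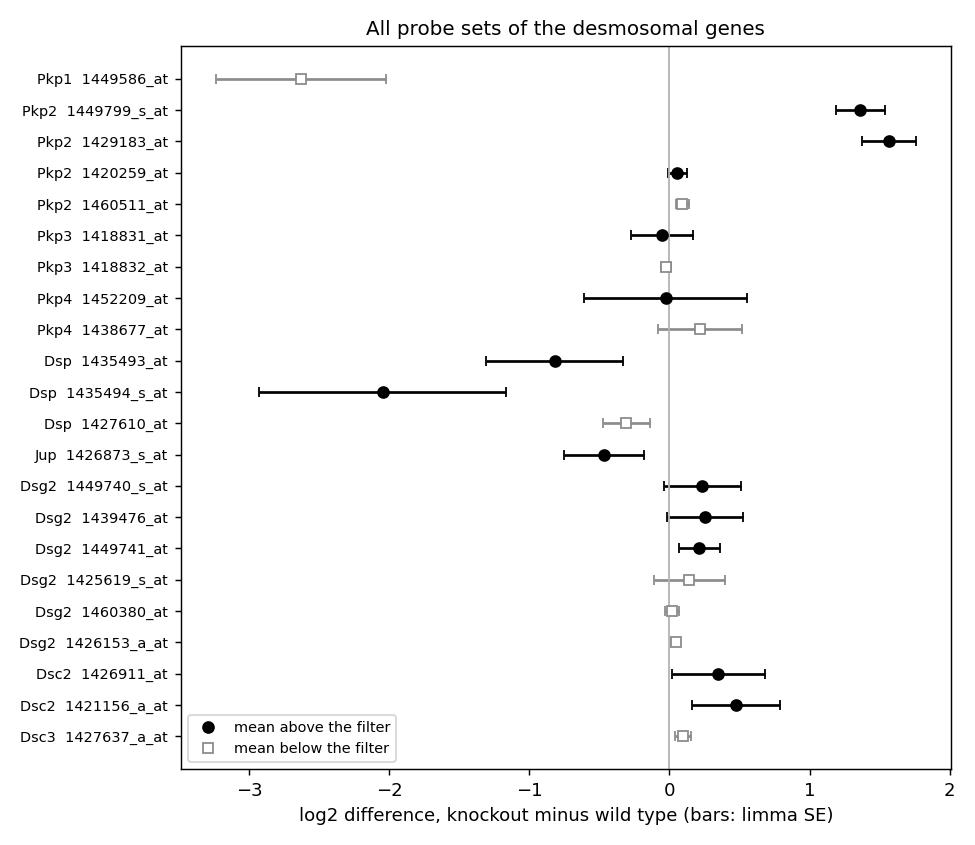
Log2 difference, knockout minus wild type (x axis), of all 22 desmosomal probe sets with the limma SE as bars, filled circles for probe sets above the filter and open squares for those below it. The 2 Pkp2 probe sets without overlap lie at 1.36 and 1.57, Pkp1 at -2.63 and the brighter Dsp probe sets at -0.82 and -2.05.

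Dsp encodes desmoplakin, the plaque protein that ties desmosomes to keratin filaments, and Jup encodes plakoglobin, which joins it to the cadherins. Both had lower means in the knockout, and neither passed the test. Of the 9 genes 3 (Dsp, Jup and Pkp4) matched the RefSeq promoter table (GRCm38.p6) by symbol. The 250 bases before the annotated start are shown for Dsp and Jup, the plaque pair described next, 5′ to 3′ on the strand of the gene, with matches to the searched motifs in capitals. The Dsp stretch is chr13:38151044-38151293 (plus strand) and the Jup stretch chr11:100397791-100398040 (minus strand).
Dsp: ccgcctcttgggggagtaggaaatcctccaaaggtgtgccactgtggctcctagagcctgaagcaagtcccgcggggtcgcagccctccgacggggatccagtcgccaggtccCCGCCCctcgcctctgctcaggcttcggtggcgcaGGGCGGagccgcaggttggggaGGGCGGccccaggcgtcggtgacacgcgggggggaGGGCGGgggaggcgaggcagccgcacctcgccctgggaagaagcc
Jup: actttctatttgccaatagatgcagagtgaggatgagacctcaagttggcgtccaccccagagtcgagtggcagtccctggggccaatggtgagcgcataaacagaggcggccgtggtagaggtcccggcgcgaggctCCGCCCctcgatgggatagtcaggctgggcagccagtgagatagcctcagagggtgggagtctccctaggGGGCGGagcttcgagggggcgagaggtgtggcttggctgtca
The motifs searched on both strands were GGGCGG (Sp1), CACGTG (the E-box bound by Myc and Max), TGANTCA (AP-1) and AACCNGTT (grainyhead). The capitals are Sp1 boxes only, 4 before Dsp and 2 before Jup. Of 32851 windows of this length 32.7% held at least 1 such box, 16.7% at least 2 and 4.09% at least 4. An E-box was present in 6.02% of all windows, an AP-1 motif in 6.75% and a grainyhead motif in 1.79%, and in neither of these stretches. GC content was 72.4% before Dsp and 62.0% before Jup, with a median of 52.4% over all windows.

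On the brighter Dsp probe set, 1435493_at, the knockout ran from 5.92 through 7.30 to 8.46 and the wild type from 6.59 through 8.33 to 9.38. The groups overlapped, with wild-type arrays 5 and 6 above every knockout array and knockout array 1 below every wild-type array. The difference was -0.82 (SE 0.49, adjusted p = 0.366). The second probe set, 1435494_s_at, spread over a wider range, from 3.21 through 4.85 to 7.39 in the knockout and from 3.76 through 7.68 to 8.59 in the wild type. 4 of 6 wild-type arrays were above every knockout array on it, and the difference was -2.05 (SE 0.88, adjusted p = 0.231). Deviations of the 2 probe sets from their group means followed each other at r = 0.94 over 12 arrays, and both were designed on the same accession. Wild-type array 4 was the low one of its group on both, at 6.59 and 3.76. Without it the differences were -1.14 (adjusted p = 0.241) and -2.71 (adjusted p = 0.0990). Over each left-out array they ran from -1.14 to -0.53 and from -2.71 to -1.68, with -0.53 for the first without knockout array 1 and -0.58 without wild-type array 6. They were -0.38 and -1.22 with array weights, -1.63 and -3.57 with the beta-actin covariate and -2.43 and -4.88 with the luminal covariate. Neither probe set passed under any of the alternatives tried. The third Dsp probe set, 1427610_at, was above background on 3 wild-type arrays and no knockout array.

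Jup has 1 probe set, 1426873_s_at, which ran from 7.09 through 7.44 to 8.44 in the knockout and from 7.41 through 8.09 to 8.66 in the wild type. Knockout arrays 5, 3 and 2 were below every wild-type array, and knockout array 1 was within the upper part of the wild-type range. The difference was -0.47 (SE 0.29, adjusted p = 0.374), and with the beta-actin covariate it was 0.21 (adjusted p = 0.878).

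The desmosomal cadherins of simple epithelium had slightly higher means in the knockout, with overlapping groups and no call. Dsg2, the widely expressed desmoglein, has 6 probe sets, of which 3 passed the filter with differences between 0.21 and 0.26 and adjusted p-values between 0.425 and 0.644. Its brightest, 1449740_s_at, ran from 7.43 through 8.24 to 9.00 in the knockout and from 7.46 through 8.07 to 8.53 in the wild type. Knockout arrays 4 and 5, the 2 closest arrays of the series, were above the wild-type range, and knockout array 2 was just below it. The difference of 0.24 was 0.0941 without knockout array 5, 0.15 without array 4, 0.41 without array 2, 0.116 without wild-type array 2 and 0.12 with knockout arrays 4 and 5 averaged. Probe set 1439476_at followed it (r = 0.94 of deviations over 12 arrays), while 1449741_at did not (r = -0.04). The 3 Dsg2 probe sets below the filter were above background on at most 2 arrays a group and differed by 0.02 to 0.14.

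Dsc2, the desmocollin that pairs with Dsg2, ran from 5.32 through 6.02 to 6.87 in the knockout and from 4.86 through 5.60 to 6.60 in the wild type on probe set 1426911_at. Knockout array 1 was above the wild-type range and wild-type arrays 3 and 5 were below the knockout range, with the other arrays overlapping. The difference was 0.35 (SE 0.33, adjusted p = 0.568), against 0.18 without knockout array 1, 0.18 without wild-type array 3, 0.53 without wild-type array 1 and 0.93 with the beta-actin covariate. Its second probe set, 1421156_a_at, followed the first at r = 0.87 and differed by 0.47 (SE 0.31, adjusted p = 0.409). Dsc3, the desmocollin of basal and stratified layers, was below background on all 12 arrays, between 2.98 and 3.31.

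Whether the members rose and fell together from array to array was asked within the groups, which does not use the contrast that chose Pkp2. For 7 genes with signal above background on at least 6 arrays the deviations from the group means were correlated over the 12 arrays, and Pkp1 and Dsc3 were left out for want of signal. Of the 21 pairs 14 had a positive r, with a median of 0.07 and a range from -0.60 to 0.72. For 12 of the 21 pairs r had opposite signs in the knockout and the wild type. None of the pairs passed after adjustment over the 21 in the permutation test (100000 resamples within groups, two-sided), and 2 had an unadjusted p under 0.05. Chance alone gives a share of 0.05 at that threshold.

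Both pairs with an unadjusted p under 0.05 involve Pkp3. For Pkp3 and Jup r was 0.72 (permutation p = 0.0141, adjusted p = 0.296) and rho 0.76 (permutation p = 0.00968, adjusted p = 0.203). Without knockout array 5 and wild-type array 2 r was 0.57. Within the groups r was 0.49 in the knockout and 0.95 in the wild type. It was -0.06 without knockout arrays 5 and 6, and 0.82 without wild-type arrays 2 and 3. For Pkp3 and Pkp4 r was -0.60 (permutation p = 0.0315, adjusted p = 0.330) and rho -0.50 (permutation p = 0.0857, adjusted p = 0.658). Without knockout array 5 and wild-type array 2 r was -0.55. Within the groups r was -0.68 in the knockout and -0.63 in the wild type. It was -0.37 without knockout arrays 5 and 6, and turned to 0.22 without wild-type arrays 2 and 3. Pkp2 followed none of the other 6 closely, with r between -0.30 (Pkp3) and 0.44 (Dsc2).

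**Figure D3:**
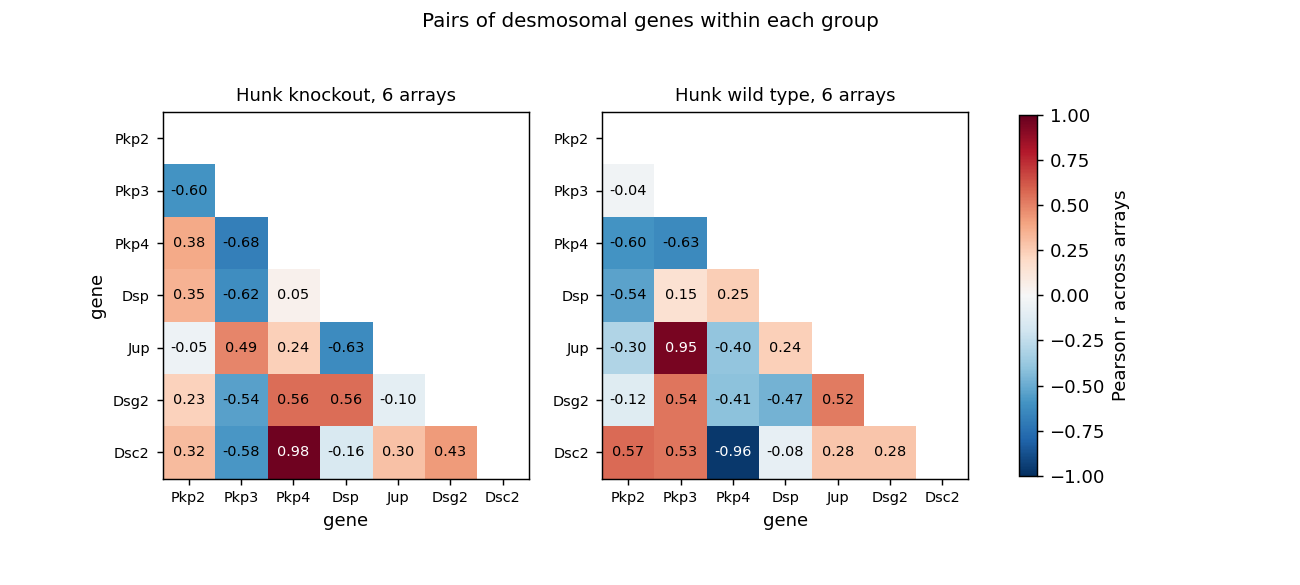
Pearson r across the 6 knockout arrays (left) and the 6 wild-type arrays (right) for each pair of the 7 desmosomal genes with signal, from -1 (blue) to 1 (red). Pkp3 and Jup reach 0.95 in the wild type, and Pkp4 and Dsc2 stand at 0.975 in the knockout and -0.964 in the wild type.

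No desmosomal gene was among the 5 whose pattern within the groups was most like that of Pkp2. Members are few among the genes searched, so nothing is read from this. Among 6824 other genes the highest r of deviations over 12 arrays belonged to the RNA-binding protein gene Qk (0.92), Smad4 (0.89), which encodes a signal transducer of the TGF-beta pathway, the thioredoxin-related Tmx1 (0.87), the TGF-beta receptor gene Tgfbr1 (0.86) and the mitochondrial Mterf3 (0.83). They are the top of a long ranking, so no p is given. None of the 5 differed between the groups past the threshold, with log2 differences between -0.67 and -0.08.

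Lists of neighbouring genes of the junction were counted in the same fit, in which 1.18% of all tested probe sets were called higher and 1.28% lower. Of 12 keratin and intermediate filament genes, partners of desmoplakin, 10 were tested, 1 was called higher, 0 lower and 9 did not pass, with a median difference of 0.07. The one called higher was Krt19, a simple-epithelial keratin (10.64 ± 1.45 against 6.56 ± 2.20, SD, n = 6 each, adjusted p = 0.0479). Its groups overlapped, with knockout array 1 at 8.22 and wild-type array 6 at 9.13. In the limma fit over all probe sets, without the filter, Krt19 did not pass (adjusted p = 0.0978). Krt18 (difference -0.17), Krt8 (0.39) and Vim (0.03) did not pass. Of 12 adherens junction genes, 11 were on the array and 7 tested, with 0 called and a median of 0.14. E-cadherin (Cdh1), the core adhesion molecule of that junction, had means of 9.58 ± 0.21 for knockout and 9.44 ± 0.08 for wild type (SD, n = 6 each, adjusted p = 0.476), and vinculin (Vcl), which ties catenins to actin, had a difference of 0.64 (adjusted p = 0.106). At an unadjusted p under 0.05, 1 of the 7 (Vcl) differed in that limma fit, as did 19.1% of all tested probe sets.

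Of 12 genes that regulate desmosomes or the epithelial state, 11 were on the array and 10 tested. Esrp2, an epithelial splicing factor, was called higher (8.23 ± 0.16 against 7.49 ± 0.32, SD, n = 6 each, adjusted p = 0.0280). In the limma fit over all probe sets it did not pass (adjusted p = 0.0592). The other 9 did not pass, among them the Esrp2 paralog Esrp1 (-0.05), the epithelial transcription factor gene Grhl2 (-0.03) and Adam10 (0.12), which encodes a protease that sheds cadherins. Of 10 further desmosome and cornified-plaque genes 5 were on the array, of which Perp, a desmosomal membrane protein, was the only one tested (0.11, adjusted p = 0.910), and Ppl, Evpl and Cdsn were at or below background on all arrays. The medians of these lists lie beside 0.01 for all probe sets tested.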

How the data were processed

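Signals of 12 Affymetrix arrays, 6 for each Hunk genotype as the titles give it, were used as deposited by the authors, as log2 values made with GCRMA according to the submitters' processing notes. The version is not given in the sources used here. GCRMA adjusts for probe sequence and compresses signals near background. Gene symbols came from the platform annotation. Probe sets of a gene and genes of a list were ordered by mean signal only to choose which to name, and marker signals were summed on the linear scale; signal also depends on the probes, so neither compares RNA levels between genes. Differences were fitted with limma 3.58.1 (R 4.3.3; lmFit, eBayes with trend) over all probe sets but 64 controls whose mean exceeded the median probe-set mean, with Benjamini-Hochberg adjustment at 0.05. Members below that filter were read from the fit over all probe sets. The fit with the filter and the within-group permutation test were tested on simulated data, and the fit over all probe sets was not. The members, lists and markers were chosen with earlier results of these data known. All members were named, of each related list at most 4 genes (those past the threshold, then the most abundant), and the 5 genes most like Pkp2 within groups. Alternatives covered filter, normalization, offset, floor, covariates, weights, block, threshold and left-out arrays.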

Additional observations from a re-analysis of the deposited data

Results flagged for a closer look

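Of 44 groups of 6 arrays (22 probe sets in each genotype), 2 held an array far from the others, where chance gives about 1 in 20. For Pkp1 (1449586_at), knockout array 6 was at 2.19, with the next array at 1.98. For Pkp3 (1418832_at), wild-type array 6 was at 3.46, with the next array at 3.36. Both values were below the background of their arrays.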

How the results depend on the processing

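The 2 desmosomal calls, both Pkp2, come from the contrast that chose the genes, so their count over alternatives says nothing about stability. It was 1 with the filter at the 75th percentile and with 1 probe set per gene, where the second Pkp2 probe set was not tested, and 0 with the luminal marker covariate. In these fits none was called lower under any of the 29, but Pkp1, below the filter, was tested there only where the filter was left off. Read from limma over all probe sets, Pkp1 was lower past 0.05 with array weights (adjusted p = 0.00664). It also passed without wild-type array 2 (adjusted p = 0.00631) and at a threshold of 0.1 (adjusted p = 0.0841). Over all probe sets (133 higher, 145 lower) the counts were 73 and 79 without the filter, 300 and 302 with array weights, 71 and 33 with the beta-actin covariate, 1 and 0 with the luminal covariate, 83 and 87 with knockout arrays 4 and 5 averaged, 309 and 357 at a threshold of 0.1 and 33 and 32 at 0.01. With median centring 85 were higher. Leaving out 1 array gave 61 to 140 higher and 73 to 175 lower, lowest without wild-type array 4. Signs turned only for differences that did not pass. For Pkp3 the difference was 0.00535 with quantile normalization, 0.0273 with the beta-actin covariate, 0.0517 with the luminal covariate and 0.0201 with knockout arrays 4 and 5 averaged, and -0.18 to 0.0593 over left-out arrays. For Pkp4 it was 0.13 with array weights, 0.0601 with an offset of 32, 0.95 with the beta-actin covariate and 0.26 with the basal covariate, and -0.35 to 0.31 over left-out arrays. Jup stood at 0.21 and Dsc3 at -0.0087 with the beta-actin covariate, and Dsg2 at -0.18 with the luminal covariate. The cause was not tested. In the co-variation, 0 of 21 pairs passed under all 17 alternatives.

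Replicate numbers are shared by the groups, but same-numbered arrays correlated in their deviations between -0.02 and 0.14, over 0.1 for 2 of 6 numbers, so the numbers were not taken as pairs, and 3 of 6 knockout arrays correlated best with their own number. With the replicate block 50 probe sets were higher and 62 lower, and no member other than Pkp2 was called.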

Other observations

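Pkp4 and Dsc2, a plakophilin and a desmocollin, ran in the same order across the knockout arrays and in opposite order across the wild-type arrays. This was picked after seeing 42 pair and group correlations, of which 0 passed after adjustment. With only 6 arrays an exact p cannot fall far enough for a single pair to pass over 42. Even an exact permutation p of 0.00139 became 0.0583, so nothing is read from the 0. In the knockout r was 0.975 (rho = 1, exact permutation p = 0.00278, adjusted p = 0.0583, n = 6), between 0.964 and 0.986 with 1 array left out, 0.981 with knockout arrays 4 and 5 averaged and 0.995 without arrays 1 and 6. In the wild type r was -0.964 (rho = -1, exact permutation p = 0.00139, adjusted p = 0.0583, n = 6), between -0.995 and -0.942 with 1 array left out and -0.915 without arrays 1 and 3. The second Dsc2 probe set, 1421156_a_at, looked at afterwards, gave r = 0.895 in the knockout and -0.894 in the wild type. It shares the arrays and the gene with the first and is no independent support. The difference between the groups was not tested. In the knockout Pkp4 and Dsc2 were both higher on arrays 1, 4 and 5 than on the other arrays, as were Kit and Grhl1, so the division was not particular to this pair.

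Pkp3 and Jup reached r = 0.952 in the wild type (rho = 0.943, exact permutation p = 0.00417, adjusted p = 0.0583, n = 6), and 0.824 without arrays 2 and 3. In the knockout r was 0.486 (exact permutation p = 0.344, adjusted p = 0.735, n = 6), and -0.0555 without arrays 5 and 6. That difference was not tested either.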
